A study of Mus musculus with 6 samples.

Results

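A set of 10 amino acid transporter genes was followed in mouse embryonic fibroblasts (MEFs) that lack normal DNA methylation. They are the glutamate and neutral amino acid carriers Slc1a1, Slc1a3, Slc1a4 and Slc1a5, the heteromeric exchanger genes Slc3a2, Slc7a5 and Slc7a11, the cationic carrier Slc7a1 and the sodium-coupled neutral carriers Slc38a1 and Slc38a2. All probes paired with 1 of these symbols were taken, which gave 25 of the 45281 probes on the array and 9 of the 19057 genes with a probe. Slc7a5 has no probe paired with it in the annotation used here and was not analysed. The genes were chosen on the signals of these same arrays, so their values are a description and carry no test.

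RNA of 3 Dnmt1-/- and 3 Dnmt1+/+ samples was hybridised to Illumina MouseWG-6 v2.0 BeadChips, single-colour arrays on which each probe binds part of 1 transcript. The Dnmt1-/- MEFs have the genotype Trp53-/- Dnmt1-/-, and their controls are Trp53-/- Dnmt1+/+, so every sample lacks Trp53. Per the study's methods the disrupted Dnmt1 allele is hypomorphic, and Dnmt1 encodes the maintenance DNA methyltransferase. No treatment was given, the age of the embryos is not given in the sources used here, and no source states whether a replicate is its own culture. The p-values therefore measure array-to-array spread that could be technical. As far as the sources say each genotype is 1 line of cells, so line and genotype cannot be told apart.

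Amino acids enter cells through carriers of several solute carrier families. SLC1 carriers couple the entry of glutamate or of small neutral amino acids to sodium, and SLC38 carriers bring in glutamine and other neutral amino acids. SLC7 light chains such as Slc7a11, which exchanges glutamate for cystine, reach the cell surface with the heavy chain Slc3a2. When amino acids are short, the transcription factor Atf4 raises many of these genes together with enzymes that make amino acids, and Nfe2l2 raises Slc7a11 under oxidative stress. Slc1a3 is best known as a glutamate carrier of astrocytes.

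Mean raw signal per array was 217 to 396.6 in Dnmt1-/- and 326 to 357 in Dnmt1+/+ MEFs, with Dnmt1-/- replicates 2 and 3 the dimmer arrays. Between 14699 and 16499 probes were above background on an array, which here means a detection p under 0.01 against the negative controls. Dnmt1 itself had a log2 level of 7.55 ± 0.56 in Dnmt1-/- and 9.65 ± 0.20 in Dnmt1+/+ MEFs (SD, n = 3 each), 4.31-fold lower (limma adjusted p = 0.0019). Probes above background on at least 3 of the 6 arrays were tested with limma. Of 15795 such probes 8.48% were higher and 7.69% lower in Dnmt1-/- MEFs at an adjusted p under 0.05. Of 8716 genes, each represented by its brightest tested probe, 9.61% (838) were higher and 7.82% (682) lower. With each array scaled to the median of all its probes, 286 were higher and 397 lower. All Dnmt1-/- arrays lay above all Dnmt1+/+ arrays for 18.7% of genes and below them for 21.7%. The median log2 difference of all genes was -0.05.

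The promoters of the carriers differed widely in their content of CpG, the dinucleotide that Dnmt1 methylates. RefSeq promoter windows of 300 bases, 250 before to 50 after a start site (build GRCm38.p6), were found for 7 of the 10 genes, with 2 windows for Slc7a1. There was none for Slc1a5, Slc7a5 and Slc38a1. The windows of Slc1a3, the gene with the largest difference among the carriers, and of Slc38a2, the carrier with the highest CpG count, are shown because they stand at the 2 ends of this range. Capitals mark each CpG. The Slc1a3 window lies at chr15:8710758-8711057 and the Slc38a2 window at chr15:96699679-96699978, both on the minus strand, written 5′ to 3′.
Slc1a3: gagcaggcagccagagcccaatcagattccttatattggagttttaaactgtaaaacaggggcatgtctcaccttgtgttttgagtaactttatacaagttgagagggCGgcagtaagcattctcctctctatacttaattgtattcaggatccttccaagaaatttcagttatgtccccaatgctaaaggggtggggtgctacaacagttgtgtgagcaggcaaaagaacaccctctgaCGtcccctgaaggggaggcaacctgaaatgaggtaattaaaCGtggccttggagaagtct
Slc38a2: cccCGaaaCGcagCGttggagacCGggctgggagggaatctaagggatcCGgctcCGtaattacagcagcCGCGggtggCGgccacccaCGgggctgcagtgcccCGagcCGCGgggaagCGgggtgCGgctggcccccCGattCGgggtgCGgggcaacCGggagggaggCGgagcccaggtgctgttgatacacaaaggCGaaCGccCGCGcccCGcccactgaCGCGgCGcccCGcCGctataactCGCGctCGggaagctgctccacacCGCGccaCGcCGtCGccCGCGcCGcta

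The Slc1a3 window holds 3 CpGs, with an observed over expected CpG ratio of 0.197 and 45.3% GC. Of all 32851 promoter windows, 28.2% had a ratio at or below this. The Slc38a2 window holds 41 CpGs, with a ratio of 1.03 and 73.0% GC, and 95.4% of windows were at or below it. Slc7a11 was also low in CpG, with 4 CpGs and a ratio of 0.271. Slc1a1 had 32 CpGs, Slc1a4 had 21 and Slc3a2 had 15, with ratios of 0.863, 0.666 and 0.649. The windows of Slc7a1 had 27 and 7 CpGs. The median over all windows was 7 CpGs and a ratio of 0.384, and over windows of genes tested on the arrays it was 21 CpGs and 0.773. Methylation of these windows was not measured on these arrays.

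**Figure D1:**
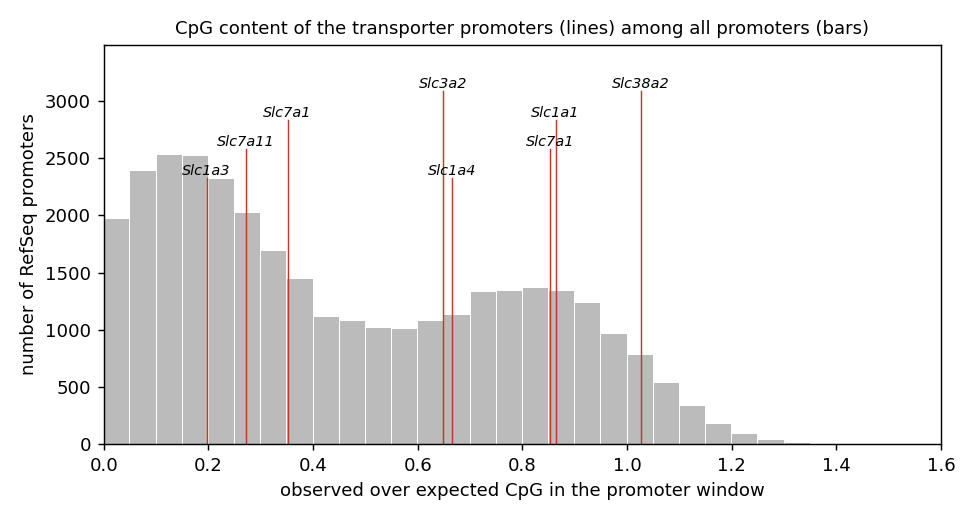
Observed over expected CpG ratio (x axis) of all 32851 RefSeq promoter windows (grey bars, number of windows on the y axis) with the 8 windows of the transporter genes as red lines. Slc1a3 at 0.197 and Slc7a11 at 0.271 lie in the CpG-poor part, and Slc38a2 at 1.03 lies at the CpG-rich end.

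The windows were also searched, on both strands, for the C/EBP-ATF response element TGATGNAA, through which Atf4 acts, and for the core of the antioxidant response element, TGANNNNGC, through which Nfe2l2 acts. TGATGNAA was found in 2 of the 7 genes. It is in 3.97% of all windows. Slc7a11 had 2 matches, one on each strand, at positions -66 and -47 with the start site at 0, and 0.0700% of all windows hold 2 or more. Slc1a4 had 1 match, at position -4. The windows are shown with these matches in capitals, Slc7a11 at chr3:50443564-50443863 and Slc1a4 at chr11:20332664-20332963, both on the minus strand.
Slc7a11: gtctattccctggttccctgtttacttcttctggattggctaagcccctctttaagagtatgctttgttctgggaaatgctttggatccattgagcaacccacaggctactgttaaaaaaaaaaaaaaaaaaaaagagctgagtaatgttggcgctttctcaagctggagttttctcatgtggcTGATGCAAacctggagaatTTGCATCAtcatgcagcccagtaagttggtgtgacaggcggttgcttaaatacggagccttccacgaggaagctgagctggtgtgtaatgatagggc
Slc1a4: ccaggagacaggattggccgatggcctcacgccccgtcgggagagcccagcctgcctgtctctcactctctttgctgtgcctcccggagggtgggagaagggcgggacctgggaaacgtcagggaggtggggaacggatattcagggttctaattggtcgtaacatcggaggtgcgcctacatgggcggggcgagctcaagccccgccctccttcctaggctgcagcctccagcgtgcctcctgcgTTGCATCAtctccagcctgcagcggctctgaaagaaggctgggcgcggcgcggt

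The shorter core TGANNNNGC is in 41.3% of all windows. Slc1a3 and Slc7a11 had 3 matches each, and Slc1a4, Slc38a2 and 1 window of Slc7a1 had 1. In Slc7a11 the match at position -45 overlaps the TGATGNAA match at -47. A match of letters is a description and not a binding site.

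Slc1a3 had the largest difference among the carriers. Its single probe read 111.6, 99.9 and 97.9 in Dnmt1-/- MEFs, against 1803, 496.6 and 1295 in Dnmt1+/+ MEFs. The Dnmt1-/- values were not above background on any of the 3 arrays, with detection p of 0.208, 0.202 and 0.059, whereas all 3 Dnmt1+/+ arrays were, and the groups did not overlap. The log2 level after background correction and quantile normalization was 4.50 ± 0.17 in Dnmt1-/- and 9.73 ± 1.09 in Dnmt1+/+ MEFs (SD, n = 3 each), a fitted difference of -5.23 (SE 0.46). Because the Dnmt1-/- level is only a bound, Slc1a3 was at least 27.3-fold lower, taking the lowest signal detected on each array as the level there. It was tested only because all 3 Dnmt1+/+ arrays passed the detection filter. In a bulk sample, fewer cells with a transcript and less of it per cell cannot be told apart.

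The 3 Dnmt1+/+ arrays themselves differed in Slc1a3, replicate 2 reading less than the others. Without Dnmt1+/+ replicate 2 the bound was 40.9-fold, and over the leaving out of each array it ran between 20.3-fold and 40.9-fold. The size rests on the background correction. The bound was 11.5-fold with a normexp offset of 50, 7.10-fold with no background correction and 7.54-fold with the authors' processed values. Of 10 astrocyte and radial glia markers, 7 were not above background on any array, among them Gfap, Aqp4, S100b and Slc1a2. Nes and Ndrg2 were above background on all 6 arrays, and neither was called. Nes stood at log2 8.23 in Dnmt1-/- and 7.87 in Dnmt1+/+ MEFs, and Ndrg2 at 6.44 and 6.64. The summed level of the 10 markers, in linear normalized units, was 492 to 729 in Dnmt1-/- and 470 to 526 in Dnmt1+/+ MEFs. These units keep the offset of 16 added at background correction, so probes not above background add to every marker sum given here. Of 6 neuron markers 4 were not above background on any array, and their sum was 125 to 153 in Dnmt1-/- and 272 to 425 in Dnmt1+/+ MEFs. Map2, the 1 neuron marker tested, makes up most of the gap between these sums, at log2 4.84 in Dnmt1-/- and 7.83 in Dnmt1+/+ MEFs. It fell in Dnmt1-/- MEFs by a factor of at least 7.09 (limma adjusted p = 0.00026). It was above background on 1 Dnmt1-/- and 3 Dnmt1+/+ arrays, so its call had little room to go the other way. Macrophage and blood markers summed to 409 to 499 in Dnmt1-/- and 247 to 312 in Dnmt1+/+ MEFs, with Cd14 and Cd53 called higher and 4 of 7, among them Ptprc, not above background on any array. Fibroblast markers summed to 13212 to 14534 in Dnmt1-/- and 13945 to 16622 in Dnmt1+/+ MEFs, with S100a4 called higher and Thy1 lower. Vim, at log2 13.26 in Dnmt1-/- and 13.48 in Dnmt1+/+ MEFs, makes up most of the fibroblast sums. These sums therefore say little of the other fibroblast markers, of which Postn was not above background on any array. Cd53 passed the detection filter through the Dnmt1-/- arrays alone and Thy1 through the Dnmt1+/+ arrays alone. Each was therefore tested only through the group in which it is higher. Epithelial markers summed to 92.2 to 107.7 in Dnmt1-/- and 85.6 to 87.4 in Dnmt1+/+ MEFs. Endothelial markers summed to 87.7 to 90.5 in Dnmt1-/- and 93.0 to 98.3 in Dnmt1+/+ MEFs. In each list 3 of 4 were not above background on any array, so the epithelial and endothelial sums are mostly background. The part of these markers in the Slc1a3 difference was not tested.

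**Figure D2:**
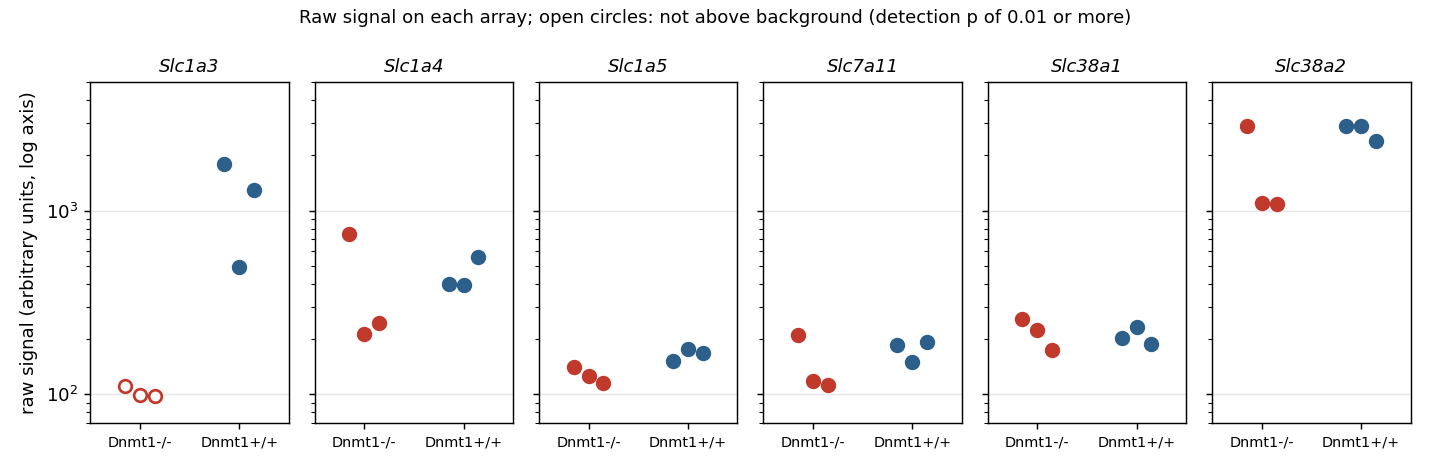
Raw signal (y axis, arbitrary units, log axis) of the brightest probe of each tested carrier gene on the 3 Dnmt1-/- arrays (red, left) and the 3 Dnmt1+/+ arrays (blue, right); open circles are not above background. Slc1a3 sits at 97.9 to 111.6 in Dnmt1-/- and at 496.6 to 1803 in Dnmt1+/+ MEFs.

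The other glutamate carriers of the family were dim. The 3 probes of Slc1a1, a glutamate and cysteine carrier of neurons and epithelia, were not above background on any array, with raw signals of 87.5 to 115.5 in Dnmt1-/- and 95.5 to 110.2 in Dnmt1+/+ MEFs. The 5 probes of Slc1a2, the main astrocyte glutamate carrier, were likewise not above background on any array. Slc1a6, a glutamate carrier of cerebellar neurons, was above background on 1 Dnmt1-/- and 2 Dnmt1+/+ arrays. Its log2 level lay near background, at 4.93 ± 0.19 in Dnmt1-/- and 5.10 ± 0.22 in Dnmt1+/+ MEFs (SD, n = 3 each). The difference was -0.17 (limma adjusted p = 0.57). Its sign turned, to 0.12, when arrays were scaled to the median of the tested probes, an alternative chosen after seeing the data, and with the planned array weights, whose estimate stopped before convergence, it was -0.42 (limma adjusted p = 0.0175). The probe of Slc1a7, a retinal glutamate carrier, was above background on 1 array and was not tested.

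The neutral amino acid carriers of the same family were above background in both groups. Slc1a4, which carries alanine, serine and cysteine, read 742.6, 213.7 and 244.2 in Dnmt1-/- MEFs, against 400.7, 395.6 and 560.5 in Dnmt1+/+ MEFs. In raw signal Dnmt1-/- replicate 1 was the highest of the 6 arrays and Dnmt1-/- replicates 2 and 3 the lowest. After normalization Dnmt1+/+ replicate 3 was the highest, at 8.83, and Dnmt1-/- replicate 2 the lowest, at 7.56. The groups overlapped on both scales. The log2 difference was -0.16 (SE 0.33), and it turned to 0.16 without Dnmt1-/- replicate 2 and to 0.07 without Dnmt1+/+ replicate 3.

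Slc1a5, the glutamine carrier of many growing cells, has 5 probes, of which 3 were tested. The brightest read 141.8, 125.3 and 115.3 in Dnmt1-/- MEFs, against 152.0, 177.2 and 169.0 in Dnmt1+/+ MEFs. All Dnmt1-/- arrays were below all Dnmt1+/+ arrays, in raw signal and after normalization. Its log2 level was 5.65 ± 0.38 in Dnmt1-/- and 6.22 ± 0.20 in Dnmt1+/+ MEFs (SD, n = 3 each), a difference of -0.57 (SE 0.22). The other tested probes had differences of -0.42 (SE 0.19) and -0.40 (SE 0.27), and their groups overlapped after normalization. In raw signal the groups of the probe at -0.40 did not overlap, with all Dnmt1-/- arrays below. The remaining 2 probes were not above background on any array. Without Dnmt1-/- replicate 1, the brightest probe's difference was -0.35.

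Among the exchanger genes, Slc7a11 has 5 probes and 2 were tested. The brightest read 211.6, 118.2 and 112.7 in Dnmt1-/- MEFs, against 186.6, 149.7 and 192.9 in Dnmt1+/+ MEFs. The highest and the lowest of the 6 raw readings were both in Dnmt1-/- MEFs. After normalization the highest was Dnmt1+/+ replicate 3, at 6.69, and the lowest Dnmt1-/- replicate 2, at 5.56. The log2 level was 5.88 ± 0.40 in Dnmt1-/- and 6.37 ± 0.46 in Dnmt1+/+ MEFs (SD, n = 3 each), a difference of -0.49 (SE 0.28) between groups that overlapped. The second probe gave -0.28 (SE 0.22). It was above background on 2 Dnmt1-/- and 3 Dnmt1+/+ arrays, so its fall is only a bound, at least 1.09-fold. The remaining probes were not above background on any array. Without Dnmt1+/+ replicate 2 the brightest probe's difference was -0.75.

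The heavy chain Slc3a2 has 1 probe. It read 127.8, 106.0 and 93.5 in Dnmt1-/- MEFs, against 117.2, 117.8 and 115.7 in Dnmt1+/+ MEFs, and was above background on 1 array of each group. These readings lie at the edge of detection, so the probe was not tested and gives no level of the heavy chain. The 2 probes of Slc7a1, the main carrier of arginine and lysine, were not above background on any array, with raw signals of 89.1 to 116.3 in Dnmt1-/- and 98.9 to 110.8 in Dnmt1+/+ MEFs.

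The sodium-coupled carriers gave different answers from different probes. Slc38a2, a carrier of glutamine, alanine and other neutral amino acids, has 3 probes, of which 2 were tested. The brightest read 2884, 1098 and 1089 in Dnmt1-/- MEFs, against 2878, 2908 and 2388 in Dnmt1+/+ MEFs. In raw signal Dnmt1-/- replicate 1 was level with the Dnmt1+/+ arrays and the dimmer Dnmt1-/- arrays lay below them. After normalization all Dnmt1-/- arrays were below all Dnmt1+/+ arrays, at log2 levels of 11.04, 10.48 and 10.80 in Dnmt1-/- MEFs, against 11.18, 11.25 and 11.16 in Dnmt1+/+ MEFs, a difference of -0.42 (SE 0.18). The second tested probe had a difference of 0.12 (SE 0.32), with groups that overlapped. Without Dnmt1-/- replicate 2 the first difference was -0.28.

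Slc38a1, a related glutamine carrier, has 4 probes and 3 were tested. The brightest read 258.2, 224.1 and 175.0 in Dnmt1-/- MEFs, against 203.1, 234.0 and 187.3 in Dnmt1+/+ MEFs. Its log2 level was 7.29 ± 0.45 in Dnmt1-/- and 6.82 ± 0.23 in Dnmt1+/+ MEFs (SD, n = 3 each), a difference of 0.47 (SE 0.25), and the groups overlapped through Dnmt1-/- replicate 1. Without that array the groups no longer overlapped and the difference was 0.72. Without Dnmt1-/- replicate 2 it was 0.27. A dimmer probe had a difference of 0.28 (SE 0.18). It read 175.2, 116.8 and 107.9 in Dnmt1-/- MEFs, against 129.3, 135.9 and 121.5 in Dnmt1+/+ MEFs, so its groups overlapped in raw signal, and after normalization the nearest arrays were 5.486 in Dnmt1-/- and 5.484 in Dnmt1+/+ MEFs. The third tested probe gave -0.05 (SE 0.18). These 3 probes were designed on cDNA clones, and the 1 probe designed on the RefSeq transcript was not above background on any array.

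**Figure D3:**
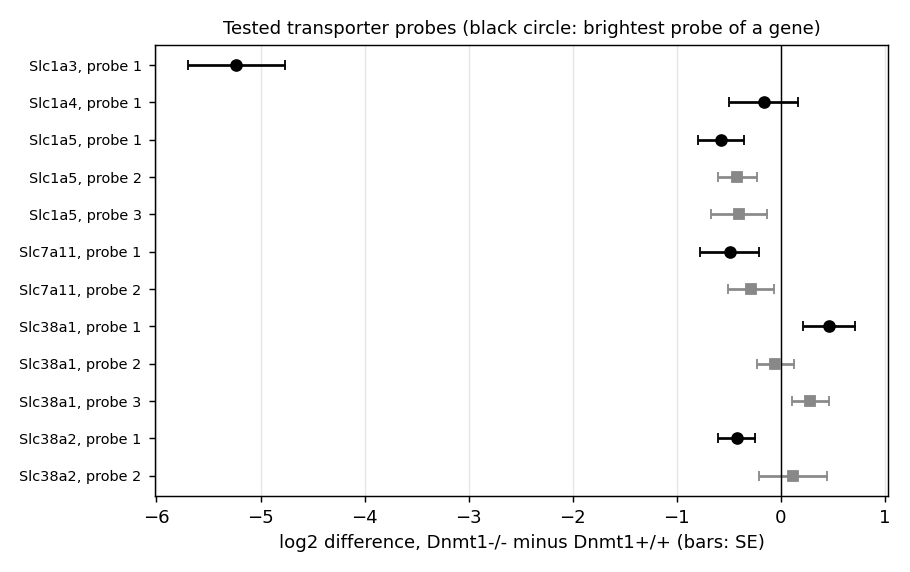
Log2 difference between Dnmt1-/- and Dnmt1+/+ MEFs (x axis, bars SE, 3 arrays a group) for the 12 tested probes of 6 carrier genes, the brightest probe of each gene as a black circle. Slc1a3 at -5.23 stands apart from the other 11 probes, which lie between -0.57 and 0.47.

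Of the 25 probes 12 were tested, from 6 genes, and 11 were not above background on any array. Of the 12, 1 was called lower, that of Slc1a3, where 7.69% of all probes were, and 0 were called higher, where 8.48% of all probes were. Of the 6 genes, 3 had all Dnmt1-/- arrays below all Dnmt1+/+ arrays, Slc1a3, Slc1a5 and Slc38a2, where 21.7% of all genes did, and 0 had them above, where 18.7% of all genes did. These counts come from the contrast on which the genes were chosen and are given as a description.

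Other amino acid transporters, a list of 51 genes, were mostly dim. Of 48 with a probe 27 were not above background on any array, and of 19 tested 2 (10.5%) were higher and 1 (5.26%) lower in Dnmt1-/- MEFs, where 9.61% and 7.82% of all genes were, with a median log2 difference of -0.09 against -0.05 over all genes. Slc38a7, a lysosomal glutamine carrier, rose 1.98-fold, at 7.53 ± 0.23 in Dnmt1-/- and 6.55 ± 0.23 in Dnmt1+/+ MEFs (SD, n = 3 each; limma adjusted p = 0.0117). Slc36a1, a lysosomal proton-coupled carrier, rose at least 1.63-fold (limma adjusted p = 0.033), being above background on 3 Dnmt1-/- and 2 Dnmt1+/+ arrays. Slc43a1, a carrier of large neutral amino acids, fell at least 1.18-fold (limma adjusted p = 0.021), being above background on 0 Dnmt1-/- and 3 Dnmt1+/+ arrays, and so tested only through the group in which it is higher. None of the 3 calls held without Dnmt1-/- replicate 3 or without Dnmt1+/+ replicate 2, and both rises were also lost without Dnmt1+/+ replicate 1. Over all alternatives, changes of processing included, the call was lost in 4 of 20 for Slc38a7, 12 of 19 for Slc36a1 and 10 of 19 for Slc43a1.

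Enzymes that make or use glutamate, glutamine and glutathione had 26 tested genes of 38 with a probe, of which 3 (11.5%) were higher and 2 (7.69%) lower in Dnmt1-/- MEFs, beside 9.61% and 7.82% of all genes, with a median of -0.24. Ggt7, of the gamma-glutamyltransferase family, rose at least 3.79-fold, with a log2 level of 6.86 ± 0.17 in Dnmt1-/- and 4.45 ± 0.09 in Dnmt1+/+ MEFs (SD, n = 3 each; limma adjusted p = 4.96e-05), where no array was above background. Prodh, which begins the breakdown of proline, rose at least 2.04-fold, and Gfpt2, which uses glutamine to make hexosamines, rose at least 1.36-fold (limma adjusted p = 0.0227 and 0.0056). Ggt7 and Gfpt2 entered the test through the Dnmt1-/- arrays alone, so they had to be higher there to be tested, and their p-values are conditional on that. Bcat1, a branched-chain transaminase that forms glutamate, fell 2.28-fold, at 9.69 ± 0.48 in Dnmt1-/- and 10.88 ± 0.10 in Dnmt1+/+ MEFs (SD, n = 3 each; limma adjusted p = 0.0143). Psat1, a transaminase of serine synthesis, fell 1.56-fold (limma adjusted p = 0.026). The call of Ggt7 held whichever array was left out, that of Prodh was lost without Dnmt1-/- replicate 2 or 3 or Dnmt1+/+ replicate 1 or 3, and neither fall was called without Dnmt1-/- replicate 3 or without Dnmt1+/+ replicate 2.

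The list of the Atf4 amino acid response shares Psat1 and other enzymes with the list before. Not all of its members are response genes, as it also holds Atf4 and the upstream kinase genes Eif2ak1 to Eif2ak4. Of its 39 tested members 3 (7.69%) were higher and 7 (17.9%) lower in Dnmt1-/- MEFs, beside 9.61% and 7.82% of all genes. Their median was -0.23. The count of 7 ran between 2 and 8 over the 20 alternatives, 15 of which moved it by over 1.5 times, among them the leaving out of each array except Dnmt1-/- replicate 1. The stress-induced Nupr1 rose 2.69-fold, the secreted glycoprotein gene Stc2 rose 2.20-fold and the transcription factor Cebpb rose 1.54-fold (limma adjusted p = 0.031, 0.0152 and 0.038). None of these rises was called without Dnmt1-/- replicate 3 or without Dnmt1+/+ replicate 1 or 2. The largest falls were of Vldlr, a lipoprotein receptor, at least 5.26-fold, and of Cars, which charges cysteine transfer RNA, 2.41-fold (limma adjusted p = 0.0056 and 0.00116). Both held whichever array was left out. Vldlr was above background on 1 Dnmt1-/- and 3 Dnmt1+/+ arrays, so its call had little room to go the other way. Sesn2, a leucine sensor, fell 1.91-fold and Cebpg, a partner of Atf4, fell 1.80-fold (limma adjusted p = 0.043 and 0.023). Both calls were lost without Dnmt1-/- replicate 3 or any 1 of the Dnmt1+/+ arrays. Over all 20 alternatives, changes of processing included, the call of Sesn2 was lost in 15 and that of Cebpg in 9. The remaining falls were of Psat1, Yars and Eif2ak4, the last pair above background on 0 Dnmt1-/- and 3 Dnmt1+/+ arrays and so tested only through the Dnmt1+/+ group.

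The transcription factors themselves had small differences. The brightest Atf4 probe measured 11.60 ± 0.11 in Dnmt1-/- and 11.80 ± 0.24 in Dnmt1+/+ MEFs (SD, n = 3 each), a log2 difference of -0.21 (limma adjusted p = 0.45), while its second probe was 1.43-fold lower (limma adjusted p = 0.049). The tested Nfe2l2 probe had a difference of -0.11 (limma adjusted p = 0.67). Of 24 glutamate receptor and vesicular carrier genes with a probe 19 were not above background on any array. The 2 tested ones were both lower, Slc17a6, a vesicular glutamate carrier, at least 1.86-fold and Gria3, an ionotropic receptor subunit, at least 1.77-fold (limma adjusted p = 0.0017 and 0.032). Slc17a6 passed the detection filter through the Dnmt1+/+ arrays alone and Gria3 on 1 Dnmt1-/- and 3 Dnmt1+/+ arrays, so this count had little room to go the other way. Gria3 was not called without Dnmt1-/- replicate 1 or 2 or Dnmt1+/+ replicate 2 or 3.

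**Figure D4:**
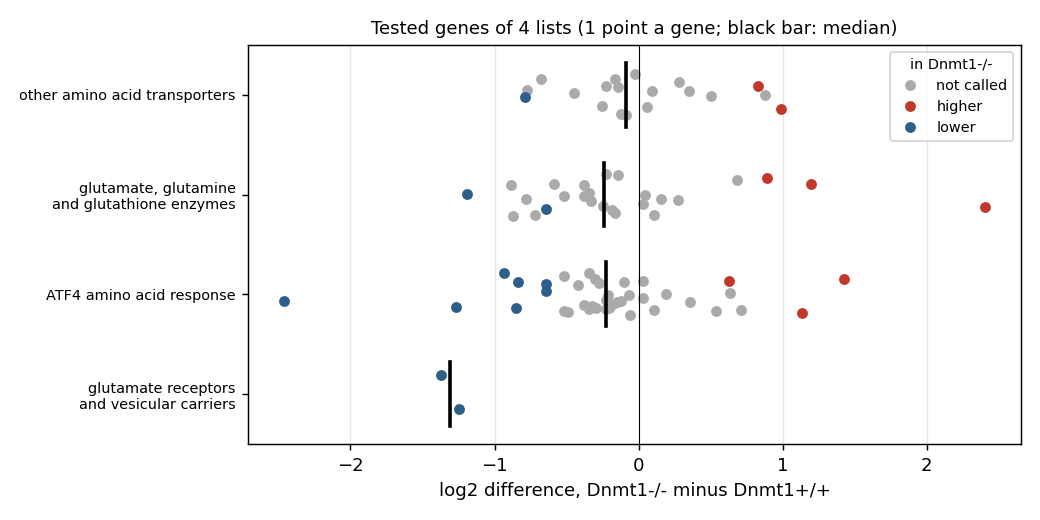
Log2 difference between Dnmt1-/- and Dnmt1+/+ MEFs (x axis) of each tested gene in 4 lists (rows), coloured by call, with the list's median as a black bar. The medians are -0.09, -0.24, -0.23 and -1.31 from top to bottom, the last over 2 genes.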

How the data were processed

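The authors deposited raw intensity values, each with a detection p-value, and processed intensity values made with lumi (version not given in the sources used here) by background subtraction, variance stabilization and robust spline normalization. The processed values are on a linear scale. The raw signals were corrected here for background with neqc (limma 3.58.1, R 4.3.3), using control levels inferred from the detection p-values and an offset of 16, then quantile normalized on the log2 scale. Groups were compared by a linear model with moderated variances (limma, two-sided), and p-values were adjusted by Benjamini-Hochberg over the 15795 tested probes. The steps were tested on simulated data. Members and gene lists were chosen with earlier results of these data known. Named genes were all members, Slc1a2, Slc1a6, Slc1a7, Atf4, Nfe2l2 and up to 4 called genes a direction and list with the largest differences. Arrays were grouped by title. Where a gene was below background on arrays of its lower group, its fold is a bound ("at least"). Alternatives covered background correction, scaling, filter, array weights, replicate block, other probes and each array left out. Protein sequences were not analysed here. The number of arrays, 3 a group, limits the precision.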

Additional observations from a re-analysis of the deposited data

How the results depend on the processing

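The log2 difference of Slc1a3 lay between -5.81 and -2.94 over the alternatives in which it was tested. The gene was chosen on this contrast and was above background on the Dnmt1+/+ arrays alone. Its direction therefore had little room to turn, and only the size is informative here. Counts of calls moved as well, and they are given here as higher then lower in Dnmt1-/- MEFs. The main counts over all genes were 838 and 682. Leaving out each array gave 458 to 848 genes higher and 282 to 675 lower, and for the carriers 0 to 1 probes and genes higher, 1 to 1 lower, 0 to 1 genes with groups apart above and 3 to 4 below. It gave 0 to 2 and 0 to 2 other transporters, 2 to 3 and 0 to 2 enzymes, 0 to 3 and 2 to 6 Atf4 response genes, and 1 to 2 receptor and vesicular genes lower. The labels do not say whether arrays of the same number are paired. Their correlations of -0.23, 0.33 and -0.14, with 3 arrays a group, cannot decide it. With the replicate block 399 genes were lower, with 1 and 0 other transporters, 1 enzyme lower, and 1 and 2 Atf4 response genes.

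Scaling to the median of all probes moved the median difference of all genes to -0.37 and gave 286 and 397 genes, 0 and 0 other transporters, 1 enzyme higher, 0 and 2 Atf4 response genes, and a Slc38a2 difference of -0.86. Scaling to the median of tested probes, chosen after seeing the data, gave 776 and 551 genes, 0 other transporters, 4 Atf4 response genes and 0 receptor genes lower, and turned Slc1a6 to 0.12. Cyclic loess gave 4 Atf4 response genes lower. A normexp offset of 50, no background correction and the authors' values each gave 1 and 0 other transporters, 4 Atf4 response genes lower and 1 receptor gene lower, and no correction gave 1 enzyme higher.

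With no detection filter 554 genes were higher, with 1 and 2 other transporters, 1 enzyme lower, and 1 and 4 Atf4 response genes. Requiring detection on all 6 arrays removed Slc1a3 from the test, so 0 carrier genes or probes were lower, and left 476 and 399 genes, 1 and 0 other transporters, 0 enzymes higher, 3 Atf4 response genes lower and 0 receptor genes lower. A detection p under 0.05 gave 2 other transporters lower. The mean of all tested probes gave 1 carrier with groups apart below and 3 other transporters lower.

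The planned array weights stopped before convergence, giving Dnmt1+/+ replicate 2 a weight of 8.52. They gave 2022 and 2367 genes, 1 carrier probe and gene higher, 5 probes and 3 genes lower, 5 and 5 other transporters, 5 and 10 enzymes, 7 Atf4 response genes higher, and an Atf4 difference of 0.033 and a Slc1a6 difference of -0.42 (limma adjusted p = 0.0175). Gene-by-gene weights, chosen after seeing that, gave 1349 and 1416 genes, 4 carrier probes and 3 carrier genes lower (Slc1a3, Slc1a5 and Slc38a2), 3 other transporters and 6 enzymes lower. Without both dimmer Dnmt1-/- arrays, also chosen after seeing the data and with the lone array assumed to vary like the others, 3 carrier probes and 2 genes were lower, with 1 other transporter higher, 4 enzymes lower and 3 Atf4 response genes lower. The causes were not tested. Signals near background, as of Slc3a2, limit what can be read.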
